A study of Homo sapiens with 9 samples.

Results

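Solute carriers are the membrane proteins that move amino acids, sugars, ions, metals, vitamins and metabolites across the plasma membrane and the membranes of organelles. Their messenger RNAs were followed in human definitive endoderm that carried 2, 1 or 0 wild-type copies of CHD7, an ATP-dependent chromatin remodeller. A gene was included when its symbol began with SLC and a digit and its mean level was high enough. The minimum was a mean over the 9 libraries of 1 CPM (counts scaled to library size). The measured value that the members were selected on was thus their mean level, and the rule held no cut on a difference between genotypes. Earlier results of these data were, however, known when the members were chosen. The table of 26240 genes holds 365 rows with such a symbol. Antisense and divergent transcripts (25 rows) and 5 genes set aside by name (SLC2A1, SLC2A3, SLC16A3, SLC22A18 and SLC25A15) were left out, and 107 rows lay below the minimum, which left 228 genes. Of these, 221 encode carriers and 7 are pseudogenes, neighbours or partners that only share the symbol. Just outside the minimum lay SLC41A2 at 0.911 CPM and SLC44A3 at 0.926 CPM, and just inside it SLC1A3 at 1.01 CPM and the pseudogene SLC9A7P1 at 1.01 CPM.

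Carriers do not hydrolyse ATP themselves. They let a solute run down its gradient, exchange it for another, or couple it to sodium, protons or potassium whose gradients are built by pumps. Families differ by substrate: the SLC7 exchangers pair with SLC3A2 to carry large neutral amino acids and cystine, SLC39 proteins bring zinc and other metals into the cytosol while SLC30 proteins take zinc out of it, SLC25 proteins serve the inner mitochondrial membrane, and SLC35 proteins supply nucleotide sugars to the Golgi and endoplasmic reticulum. Endoderm gives rise to gut, liver and pancreas, organs whose epithelia rely on many of these families.

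The cells were H9, an established human embryonic stem cell line, in which CHD7 had been deleted with CRISPR/Cas9, and which had then been differentiated to definitive endoderm. The 3 genotypes were wild type (CHD7+/+), heterozygous mutant (CHD7+/-) and homozygous mutant (CHD7-/-), with 3 libraries each. No clones, cultures or days are named for the libraries. The p-values therefore rest on library-to-library spread, which may be technical, and a difference between genotypes cannot be told apart from one between clones. CHD7 itself was at 195, 195 and 189.2 CPM in wild-type replicates 1 to 3, at 110.4, 131 and 129 CPM in the heterozygous libraries and at 56.1, 43.0 and 55.5 CPM in the homozygous ones. The 3 genotypes did not overlap, in the order that their labels give, although reads of CHD7 remained in every homozygous library. Total counts lay between 11854173 (homozygous replicate 1) and 37519729 (wild-type replicate 1).

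The summed level of 8 definitive endoderm markers was 10330.2 to 11129.5 CPM in wild type, 8629 to 9664 CPM in heterozygous and 6964 to 8100.1 CPM in homozygous libraries. CER1, a secreted Nodal and BMP antagonist, made up most of this sum and most of its fall, at 7245 ± 399, 6124 ± 660 and 4630 ± 596 CPM (mean ± SD, n = 3 in each genotype). The other 7 markers summed to 3308 to 3424 CPM in wild type, 2880 to 3165 CPM in heterozygous and 2920 to 3114 CPM in homozygous libraries. SOX17, an endoderm transcription factor, stood at 717 ± 15.03, 619 ± 52.6 and 630 ± 40.9 CPM, and EOMES at 869 ± 3.28, 809 ± 17.9 and 750 ± 32.5 CPM. For both, every homozygous library lay below every wild-type library, as in 15.7% of all genes tested. Neither was called with edgeR (adjusted p = 0.197 and 0.0811). For GATA6, GATA4, CXCR4 and GSC of the same list the homozygous and wild-type libraries overlapped. With edgeR, FOXA2 and CER1 were the 2 of the 8 lower in homozygous than wild-type cells at an adjusted p below 0.05. Of all genes tested 4.18% were called lower. DESeq2 called 3 of the 8, beside 10.5% of all genes. With edgeR 4 had an unadjusted p below 0.05, beside 23.2% of all genes. The 3 pluripotency markers summed to 69.3 to 115 CPM in wild type, 129.8 to 229 CPM in heterozygous cells and 35.7 to 134 CPM in homozygous cells, the lowest value being homozygous replicate 3. POU5F1 made up most of this sum, at 69.6 ± 22.3, 159 ± 39.4 and 90.0 ± 49.1 CPM. NANOG differed in course, at 10.4 ± 1.79, 13.2 ± 4.26 and 4.22 ± 2.43 CPM, with every homozygous library below every wild-type library. Its edgeR difference was -1.30 from wild type (adjusted p = 0.0547) and -1.65 from heterozygous cells (adjusted p = 0.0401). The latter call was lost in 6 of 9 fits without a library. Trophectoderm and amnion markers (4 genes) summed to 9.95 to 12.7, 13.4 to 13.9 and 23.5 to 31.2 CPM. TFAP2C made up most of this sum, at 9.71 ± 1.42, 12.1 ± 0.655 and 22.6 ± 3.78 CPM. With edgeR 2 of the 3 tested members, GATA3 and TFAP2C, were called higher in homozygous than wild-type cells, beside 3.50% of all genes. ISL1, at mean levels of 0.640, 0.373 and 1.10 CPM, was not called. TFAP2A was too scarce to be tested (0.0993, 0.0941 and 0.0279 CPM). Mesoderm markers (4 genes) summed to 8.18 to 12.1, 6.09 to 8.65 and 3.34 to 8.33 CPM, and the neuroectoderm markers PAX6 and SOX1 to no more than 0.689 CPM in any library. Visceral endoderm and liver markers (3 of 4 with rows) summed to 4.20 to 7.55 CPM over all libraries. The part of these marker differences in the carrier results was not tested. In RNA from whole cultures, fewer cells of a type and less RNA per cell cannot be told apart.

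The most abundant carrier per kilobase of exon was SLC7A5, the exchanger for large neutral amino acids, at a mean of 554 CPM per kb over the 9 libraries. The mitochondrial ADP/ATP carrier SLC25A6 followed at 369 CPM per kb, then its paralogue SLC25A5 at 156 CPM per kb and SLC3A2, the heavy chain that brings SLC7A5 to the cell surface, at 124 CPM per kb. Every other carrier was below these 4. The leading genes of the other classes were SLC39A14 (42.6 CPM per kb), an importer of zinc, iron and manganese, SLC16A5 (34.2), a monocarboxylate family member, SLC35A4 (32.9), of the nucleotide sugar family, SLC44A2 (28.1), a choline transporter-like protein, SLC5A9 (26.03), a sodium-linked sugar carrier, SLC4A2 (23.3), a chloride/bicarbonate exchanger, SLC6A6 (10.1), the taurine carrier, SLC66A3 (8.77), with no assigned substrate, and SLC22A17 (7.88), a receptor-like member of the organic ion family. The called genes described below spanned much of this range: SLC44A5 was at 0.371 CPM per kb, SLC9A9 at 0.800 and SLC30A4 at 0.899, while SLC16A5, SLC38A5 (21.7), SLC39A8 (16.7), SLC6A8 (14.9) and SLC1A1 (12.8) were the abundant carriers among them.

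**Figure D1:**
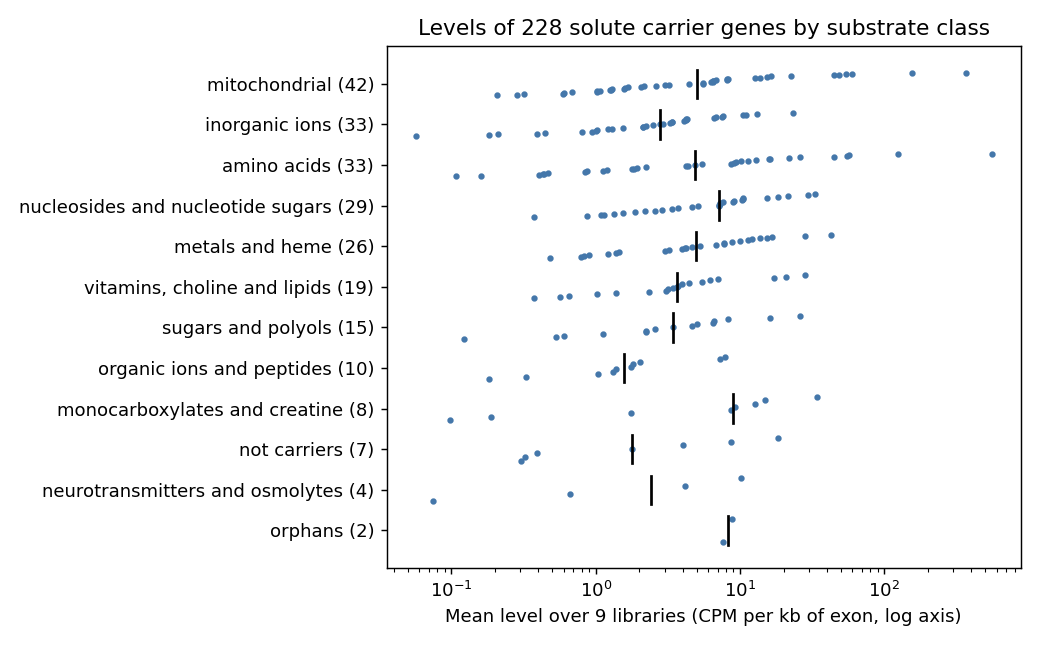
Mean level over the 9 libraries of each of the 228 genes (dots), in CPM per kb of exon on a log axis, by substrate class with the number of genes in parentheses; vertical bars are class medians. Most classes spread widely, and SLC7A5 at 554 CPM per kb is the rightmost dot.

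Homozygous cells differed from wild type in 25 of the 228 genes at an adjusted p below 0.05, 12 higher and 13 lower. That is 10.96% of the members beside 7.68% of all 16837 genes tested, and beside 8.43% of tested genes with a mean of at least 1 CPM. Of all tested genes 3.50% were called higher and 4.18% lower. With upper quartile scaling the split was 14 higher and 10 lower, so the balance between directions depends on the scaling. Homozygous and wild-type libraries did not overlap in 77 members (31 higher, 46 lower), 33.8% beside 28.9% of all genes (13.2% higher and 15.7% lower). Of tested genes with a mean of at least 1 CPM, 30.7% did not overlap (13.3% higher and 17.4% lower). The median log2 fold change of the members was -0.01 and that of all tested genes 0.01, and 199 members differed by less than 1.5-fold. Differences over 2-fold were seen in 11 members, of which 7 were called.

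Heterozygous cells differed from wild type in 4 members, 3 higher (SLC24A3, SLC8A2 and SLC25A14) and 1 lower (SLC44A5). This was 1.75% of members beside 1.86% of all genes tested, of which 0.820% were higher and 1.04% lower. All 4 were also called in homozygous cells in the same direction; both comparisons use the same wild-type libraries. Heterozygous and wild-type libraries did not overlap in 56 members (19 higher, 37 lower), 24.6% beside 22.2% of all genes (11.1% higher and 11.1% lower). Of tested genes with a mean of at least 1 CPM the share was 23.3% (11.4% higher and 11.9% lower). Between the mutants, homozygous cells were higher than heterozygous in 1 member (SLC30A4) and lower in 5 (SLC44A5, SLC52A3, SLC7A14, SLC39A8 and SLC9A7). This was 2.63% of members beside 2.21% of all genes, of which 0.986% were higher and 1.22% lower. Homozygous and heterozygous libraries did not overlap in 53 members (29 higher, 24 lower), 23.2% beside 19.5% of all genes (9.02% higher and 10.5% lower). Here the share of tested genes with a mean of at least 1 CPM was 20.3% (9.12% higher and 11.2% lower). In 23 of the 25 genes called in homozygous cells the heterozygous mean lay between the other 2 means (92.0%), against 1104 of all 1293 called genes (85.4%). SLC44A5 was the member called in all 3 comparisons, 26 members were called in at least 1, and 202 in none.

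**Figure D2:**
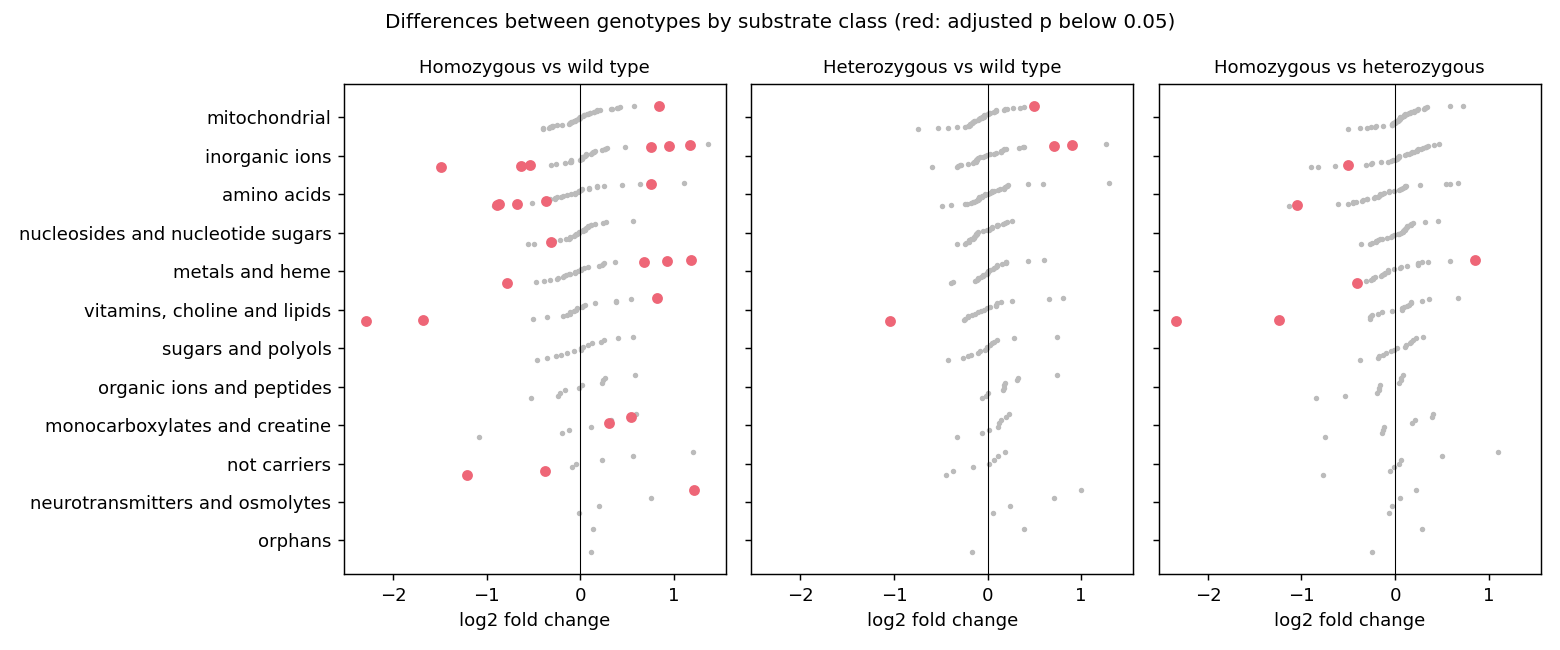
Log2 fold change of each of the 228 genes (dots) in the 3 comparisons of genotypes, by substrate class; red dots passed the test at an adjusted p below 0.05. The 25 red dots of homozygous against wild type lie on both sides of 0, and the classes of sugars, organic ions and orphans have none.

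To show what stands before the start sites of genes that differed in opposite directions, reference promoter sequence was taken for the 2 largest falls and the 2 largest rises that had enough upstream sequence free of exons. The letters are from RefSeq on GRCh38.p14 and lie upstream of every annotated exon in GENCODE 29. They are written 5′ to 3′ on the strand of the gene, with CG dinucleotides in capitals. SLC44A5 (chr1:75611117-75611364, minus strand) and SLC9A9 (chr3:143848532-143848718, minus strand) fell in homozygous cells, and SLC30A4 (chr15:45522808-45523005, minus strand) and SLC25A14 (chrX:130339669-130339887, plus strand) rose.
SLC44A5: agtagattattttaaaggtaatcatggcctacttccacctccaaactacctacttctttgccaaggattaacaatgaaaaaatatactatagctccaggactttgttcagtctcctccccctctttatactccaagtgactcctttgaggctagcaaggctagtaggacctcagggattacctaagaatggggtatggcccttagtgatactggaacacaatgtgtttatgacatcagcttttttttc
SLC9A9: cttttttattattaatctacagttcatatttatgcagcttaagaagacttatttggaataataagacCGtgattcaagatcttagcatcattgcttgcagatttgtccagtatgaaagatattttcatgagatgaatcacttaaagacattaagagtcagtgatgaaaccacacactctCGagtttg
SLC30A4: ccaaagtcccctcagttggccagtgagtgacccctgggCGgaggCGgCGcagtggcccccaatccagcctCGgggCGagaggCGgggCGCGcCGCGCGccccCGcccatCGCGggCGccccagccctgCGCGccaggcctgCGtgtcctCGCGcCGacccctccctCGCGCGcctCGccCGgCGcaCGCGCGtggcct
SLC25A14: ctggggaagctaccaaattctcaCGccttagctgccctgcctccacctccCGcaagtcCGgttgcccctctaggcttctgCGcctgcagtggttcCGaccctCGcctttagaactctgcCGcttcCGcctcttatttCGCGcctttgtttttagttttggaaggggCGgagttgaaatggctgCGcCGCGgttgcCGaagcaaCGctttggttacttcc

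The SLC44A5 stretch of 248 bases holds no CG and the shorter SLC9A9 stretch holds 2, whereas SLC30A4 holds 30 in 198 bases and SLC25A14 holds 16 in 219. These 4 are extremes and not typical of their direction. RefSeq promoter windows of 300 bases were found for 179 of the 228 members, with a median of 26 CG dinucleotides, against 14 over all 27305 promoters. The 8 matched genes that rose in homozygous cells had a median of 31.5 (7 to 47) and the 11 that fell a median of 16 (1 to 56), so the ranges overlap. SLC2A4RG, which fell, had the highest value of the called genes, 56, and SLC38A5, which rose, had 7. Both strands of the windows were also searched for short letter patterns. TATAAA was in 4.47% of member windows and in 11.95% of all, with SLC44A5 and SLC9B2 the 2 called genes that hold it. TGATGNAA, a form of the amino acid response element, was in 4 of 27 windows of amino acid carriers (14.8%) and in 3.67% of all windows, and SLC9A9 was the called gene that holds it. TGCACNC or TGCGCNC, the core of the metal response element, was in 6 of 23 windows of metal carriers (26.1%) and in 29.3% of all. It was in 35.2% of member windows and in 8 of 20 called ones. Among called metal carriers with a window, SLC30A4 and SLC40A1 hold it and SLC39A8 does not. The forkhead pattern TGTTTAC was in 1.12% of member windows and 3.41% of all, and the GATA pattern AGATAA in 3.91% and 10.5%. The median share of G and C was 67.0% in member windows and 58.3% in all, and its part in these differences was not tested.

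The class of vitamin, choline and lipid carriers (19 genes) held the largest falls. SLC44A5, a choline transporter-like protein, was at 4.29, 4.36 and 3.86 CPM in wild type, 1.69, 1.86 and 2.54 CPM in heterozygous cells and 0.501, 0.894 and 1.05 CPM in homozygous cells. No 2 genotypes overlapped, with the heterozygous libraries below wild type and the homozygous ones below the heterozygous. On the log2 scale it differed from wild type by -2.29 (SE 0.26, adjusted p = 0.000139) in homozygous cells and by -1.05 (SE 0.22, adjusted p = 0.0351) in heterozygous cells, and -1.24 (SE 0.27, adjusted p = 0.0341) between the mutants. The gene lies at chr1:75202131-75611116 on the minus strand of GRCh38, directly downstream of the CG-free stretch shown above, and its counts were low: 386 reads over the wild-type libraries and 54 over the homozygous ones. It was the one member to pass a test against a 1.5-fold change in homozygous against wild type (adjusted p = 0.000799). The heterozygous call was lost without wild-type replicates 1, 2 or 3 or heterozygous replicates 1 or 2 (adjusted p 0.074 to 0.187). The call between mutants was lost in 7 of 9 such fits, those without any wild-type library, without heterozygous replicates 2 or 3 and without homozygous replicates 1 or 2 (0.0504 to 0.0933), with the 6 libraries alone (0.127) and with limma-voom (0.0615).

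SLC52A3 encodes a riboflavin carrier of the gut. Its level was 18.96, 7.81 and 8.84 CPM in wild type, 20.6, 19.3 and 16.8 CPM in heterozygous and 5.43, 4.60 and 1.40 CPM in homozygous cells. Homozygous libraries lay below all others, while wild-type replicate 1 stood with the heterozygous libraries, apart from the other 2 wild-type values. The difference from heterozygous cells was -2.34 (SE 0.40, adjusted p = 0.00873), the largest log2 difference between the mutants among the members, and it also passed against a 1.5-fold change (adjusted p = 0.0439). Against wild type it was -1.68 (SE 0.40, adjusted p = 0.0220), and -1.16 (adjusted p = 0.0813) without wild-type replicate 1; with the 6 libraries alone the adjusted p was 0.0541. The third called gene of the class, SLC46A3, a lysosomal carrier, was higher in homozygous cells: 17.9, 18.3 and 32.8 CPM against 10.2, 14.5 and 14.5 CPM in wild type, with heterozygous cells at 12.8, 13.96 and 16.5 CPM. Its log2 fold change of 0.83 (SE 0.22, adjusted p = 0.0406) rested on homozygous replicate 3, without which it was 0.48 (adjusted p = 0.0821). Leaving out any wild-type library or heterozygous replicate 2 also ended the call (0.0672 to 0.134), as did fitting the 6 libraries alone (0.0668). The class median was -0.04. Of the 19 genes, 1 was called higher and 2 lower, beside 3.50% and 4.18% of all genes tested, and 16 were not called.

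Among 33 amino acid carriers 1 was called higher and 4 lower in homozygous against wild-type cells, beside 3.50% and 4.18% of all genes tested. The class median was -0.10 on the log2 scale. SLC1A1, a sodium-coupled carrier of glutamate, aspartate and cysteine, was at 68.8, 66.1 and 65.4 CPM in wild type, 47.4, 51.0 and 54.8 CPM in heterozygous cells and 33.6, 29.6 and 44.7 CPM in homozygous cells. The 3 genotypes did not overlap. On the log2 scale homozygous cells differed from wild type by -0.89 (SE 0.13, adjusted p = 0.000974) and heterozygous cells by -0.39 (adjusted p = 0.183), which did not pass. SLC7A14, a lysosomal relative of the cationic amino acid carriers, followed another course: 10.997, 9.71 and 9.67 CPM in wild type, 12.4, 12.8 and 9.16 CPM in heterozygous and 5.85, 4.83 and 6.08 CPM in homozygous libraries. Wild-type and heterozygous libraries overlapped, and the homozygous ones lay below both. Its differences were -0.87 (SE 0.16, adjusted p = 0.00537) from wild type and -1.05 (SE 0.16, adjusted p = 0.00464) from heterozygous cells. Whether counting used strand is not given, and SLC7A14-AS1 overlaps the gene on the other strand at a mean of 2.497 CPM; its own log2 fold change was -0.47 (adjusted p = 0.357).

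SLC38A5, a sodium- and proton-coupled carrier of glutamine, histidine and serine, was the amino acid carrier that rose. It was at 58.3, 68.4 and 76.9 CPM in wild type, 89.4, 81.1 and 64.8 CPM in heterozygous and 93.0, 113 and 137 CPM in homozygous cells. All homozygous libraries were above all others, and the other 2 genotypes overlapped. The homozygous rise was 0.76 on the log2 scale (SE 0.15, adjusted p = 0.00825). SLC43A2, which carries large neutral amino acids by facilitated diffusion, was at 5.74, 5.54 and 5.98 CPM in wild type and 3.09, 3.81 and 3.79 CPM in homozygous cells, with heterozygous libraries from 5.26 to 5.81 CPM. It fell by 0.67 (SE 0.15, adjusted p = 0.0164), a call that failed without wild-type replicates 2 or 3 or homozygous replicate 1 (0.0571 to 0.0727). The glycine carrier SLC6A9, named here after its values were seen, completed the falls at 32.2 ± 1.56, 27.6 ± 1.49 and 25.1 ± 2.49 CPM. Its log2 fold change of -0.36 (adjusted p = 0.0459) failed in all fits without a library but those without heterozygous replicate 3 or homozygous replicate 3 (0.0556 to 0.182), and with relative log expression factors, upper quartile scaling, no filter and the 6 libraries alone (0.0507 to 0.0613). CCDC24 overlaps it on the other strand at 13.1 CPM.

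None of the 5 subunits of the heteromeric exchangers built on SLC3A2 was called in any comparison with edgeR, DESeq2 or limma-voom. At an unadjusted p below 0.05 there were 2, 1 and 2, in homozygous and heterozygous cells against wild type and between the mutants. Over all genes tested these shares were 23.2%, 13.5% and 18.3%, and edgeR called 7.68%, 1.86% and 2.21%. SLC7A5 was at 2868 ± 126, 2421 ± 139 and 2598 ± 358 CPM in wild-type, heterozygous and homozygous cells, and SLC3A2 at 675 ± 31.2, 597 ± 80.8 and 648 ± 75.7 CPM. Their log2 fold changes in homozygous cells were -0.14 (SE 0.10) and -0.06 (SE 0.11). SLC7A11, the cystine/glutamate exchanger, was at 53.2 ± 6.02, 51.1 ± 7.61 and 37.5 ± 9.68 CPM, a homozygous difference of -0.51 (SE 0.17, adjusted p = 0.0891). SLC7A6, an exchanger of cationic for neutral amino acids, was at 80.6 ± 5.41, 83.4 ± 4.70 and 67.8 ± 8.15 CPM (adjusted p = 0.148). SLC7A8, a neutral amino acid exchanger, varied more between replicates than between genotypes, from 33.4 to 60.2 CPM in wild type, 47.0 to 73.4 CPM in heterozygous and 24.0 to 66.4 CPM in homozygous cells. SLC7A9 and its partner SLC3A1, the cystine carriers of kidney and gut, were not among the members. The summed level of the 33 amino acid carriers was 5443 ± 111, 4895 ± 249 and 4983 ± 520.2 CPM.

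Among 33 inorganic ion carriers 3 were called higher and 3 lower in homozygous against wild-type cells, beside 3.50% and 4.18% of all genes tested. Both sodium/calcium exchanger genes called, SLC24A3 and SLC8A2 from separate families, rose in both mutants. No other SLC8 or SLC24 gene was called in any comparison, so the rise is stated for these called genes only. SLC24A3, which exchanges sodium for calcium and potassium, was at 8.69, 8.82 and 8.51 CPM in wild type, 16.3, 15.2 and 11.1 CPM in heterozygous and 17.3, 17.2 and 15.96 CPM in homozygous cells. Every mutant library was above every wild-type library. Its log2 fold changes were 0.95 (SE 0.14, adjusted p = 0.00126) in homozygous and 0.71 (SE 0.14, adjusted p = 0.0231) in heterozygous cells. SLC8A2, a sodium/calcium exchanger best known from brain, was at 4.18, 2.66 and 2.91 CPM in wild type, 6.41, 6.03 and 5.85 CPM in heterozygous and 7.61, 8.61 and 5.83 CPM in homozygous libraries, again with wild type below all others. It rose by 1.17 (SE 0.20, adjusted p = 0.00334) and 0.90 (SE 0.20, adjusted p = 0.0422). Between the mutants neither gene passed (0.24, adjusted p = 0.376, and 0.27, adjusted p = 0.475). Both homozygous calls held without any 1 library. The heterozygous call of SLC24A3 was lost without wild-type replicates 1, 2 or 3 or heterozygous replicates 1 or 2 (0.054 to 0.121), and that of SLC8A2 without wild-type replicates 2 or 3, any heterozygous library or homozygous replicate 1 (0.0634 to 0.232).

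Of 7 SLC9 exchangers among the ion carriers, SLC9A9 and SLC9B2 were called lower in homozygous against wild-type cells and none higher. Over all genes tested 4.18% were called lower. The median log2 fold change over the 7 was -0.0066. SLC9A9, an endosomal sodium (potassium)/proton exchanger, was at 4.48, 5.18 and 4.86 CPM in wild type, 3.39, 3.65 and 2.54 CPM in heterozygous and 1.84, 0.960 and 2.54 CPM in homozygous cells. Wild type was above all mutant libraries, and heterozygous replicate 3 and homozygous replicate 3 met at the same level. The homozygous difference was -1.49 (SE 0.29, adjusted p = 0.00691), a 2.80-fold fall, and the heterozygous one -0.59 (adjusted p = 0.343). SLC9B2, a sodium/proton antiporter, was at 7.99 ± 0.439, 6.34 ± 0.617 and 5.16 ± 0.651 CPM, and fell by 0.64 (SE 0.15, adjusted p = 0.0215). The gene overlaps BDH2 on the same strand, whose log2 fold change was 0.29 (adjusted p = 0.175). SLC12A2, which brings sodium, potassium and chloride into the cell together, was at 27.0 ± 2.52, 22.2 ± 1.55 and 18.8 ± 3.06 CPM and fell by 0.53 (SE 0.13, adjusted p = 0.0250). Leaving out either of wild-type replicates 2 and 3 or of homozygous replicates 1 and 2 ended the calls of SLC9B2 (0.0613 to 0.111) and SLC12A2 (0.0584 to 0.135).

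SLC9A7, the exchanger of the trans-Golgi network, was called between the mutants alone. It was at 25.2, 27.5 and 25.3 CPM in heterozygous and 20.5, 18.2 and 16.4 CPM in homozygous cells, with wild type at 25.2, 21.3 and 21.3 CPM. The mutants did not overlap, and wild-type replicate 1 stood with the heterozygous libraries. The difference was -0.51 (SE 0.11, adjusted p = 0.0375), and was lost in 7 of 9 fits without a library, all but those without wild-type replicate 1 or homozygous replicate 1 (0.0631 to 0.151), with upper quartile scaling (0.0519) and with the 6 libraries alone (0.104). SLC34A2, the sodium-coupled phosphate carrier of gut and lung epithelium, was at 20.2, 26.3 and 29.02 CPM in wild type, 33.6, 38.7 and 22.8 CPM in heterozygous and 42.5, 38.2 and 46.5 CPM in homozygous libraries. Homozygous libraries lay above wild type, and the heterozygous ones spanned both. It rose by 0.76 (SE 0.18, adjusted p = 0.0214), a call that failed without wild-type replicates 1 or 2 or homozygous replicate 1 (0.0607 to 0.082). The largest log2 difference in the class did not pass: SLC13A4, a sulfate carrier, at 1.48, 0.295 and 0.706 CPM in wild type and 2.93, 2.62 and 1.15 CPM in homozygous cells (1.37, SE 0.47, adjusted p = 0.0971). Wild-type replicate 1 and homozygous replicate 3 overlap there.

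Of 26 metal and heme carriers, 3 were called higher and 1 lower in homozygous against wild-type cells, beside 3.50% and 4.18% of all genes tested. SLC39A8, which imports zinc and manganese, was the abundant one, at 137, 141 and 135 CPM in wild type, 109, 112 and 98.4 CPM in heterozygous and 74.8, 74.8 and 91.1 CPM in homozygous cells. The 3 genotypes did not overlap. The difference from wild type was -0.78 (SE 0.09, adjusted p = 0.000203) in homozygous cells and -0.37 (SE 0.09, adjusted p = 0.0653) in heterozygous cells, which did not pass. Between mutants it was -0.41 (adjusted p = 0.0402), a call lost in 7 of 9 fits without a library, all but those without heterozygous replicate 3 or homozygous replicate 3 (0.0628 to 0.164), with the replicate block (0.0539) and with the 6 libraries alone (0.130). SLC30A4, which loads zinc into vesicles, was at 4.80, 6.002 and 5.69 CPM in wild type, 5.57, 5.41 and 6.36 CPM in heterozygous and 11.5, 8.94 and 11.1 CPM in homozygous cells. Wild type and heterozygous overlapped and the homozygous libraries stood above both. It rose by 0.93 (SE 0.15, adjusted p = 0.00253) over wild type and by 0.85 (SE 0.15, adjusted p = 0.0128) over heterozygous cells, the latter lost without heterozygous replicate 2 (0.0765).

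SLC39A4, the zinc importer of the gut lining whose loss causes acrodermatitis enteropathica, was scarce at 2.04, 1.28 and 1.25 CPM in wild type, 2.80, 2.38 and 1.82 CPM in heterozygous and 3.26, 4.14 and 3.04 CPM in homozygous cells. Homozygous libraries were above all others. It rose by 1.19 (SE 0.26, adjusted p = 0.0132), a result that failed without wild-type replicates 2 or 3 or homozygous replicate 2 (0.0664 to 0.0713). SLC40A1, or ferroportin, the exporter of iron, was at 14.5, 13.6 and 12.8 CPM in wild type, 16.2, 14.5 and 24.8 CPM in heterozygous and 25.6, 21.5 and 18.9 CPM in homozygous libraries. Homozygous libraries lay above wild type, with heterozygous replicate 3 among them. It rose by 0.68 (SE 0.18, adjusted p = 0.0384), a call that failed without any wild-type library or homozygous replicates 1 or 2 (0.0749 to 0.141). The abundant SLC39A14 was at 303 ± 7.08, 293 ± 11.9 and 291 ± 26.8 CPM and was not called. The class sum was 1276 ± 14.7, 1246 ± 48.9 and 1160.4 ± 72.8 CPM.

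Mitochondrial carriers, the largest class with 42 genes, had 1 called member, beside 7.68% of all genes called in homozygous against wild-type cells. SLC25A14, a relative of the uncoupling proteins, was at 11.1, 12.1 and 12.6 CPM in wild type, 16.6, 15.9 and 18.2 CPM in heterozygous and 20.4, 22.8 and 20.8 CPM in homozygous cells. The 3 genotypes did not overlap, with the heterozygous libraries between the other groups. It rose by 0.84 (SE 0.11, adjusted p = 0.000419) in homozygous and by 0.50 (SE 0.11, adjusted p = 0.0362) in heterozygous cells; between the mutants the difference of 0.34 did not pass (adjusted p = 0.125). The heterozygous call was lost in 7 of 9 fits without a library, all but those without homozygous replicates 2 or 3 (0.0521 to 0.169). The other 41 genes were not called with edgeR in homozygous against wild-type cells (DESeq2 called 3 of the 42 and limma-voom 1). The class median was 0.00 on the log2 scale in homozygous cells. An unadjusted p below 0.05 was found for 9 of 42, beside 23.2% of all genes tested. The class sum was 2866 ± 68.6, 2696 ± 196.8 and 2919 ± 230.04 CPM, and SLC25A6 was at 793 ± 45.9, 759 ± 88.2 and 842 ± 116 CPM.

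**Figure D3:**
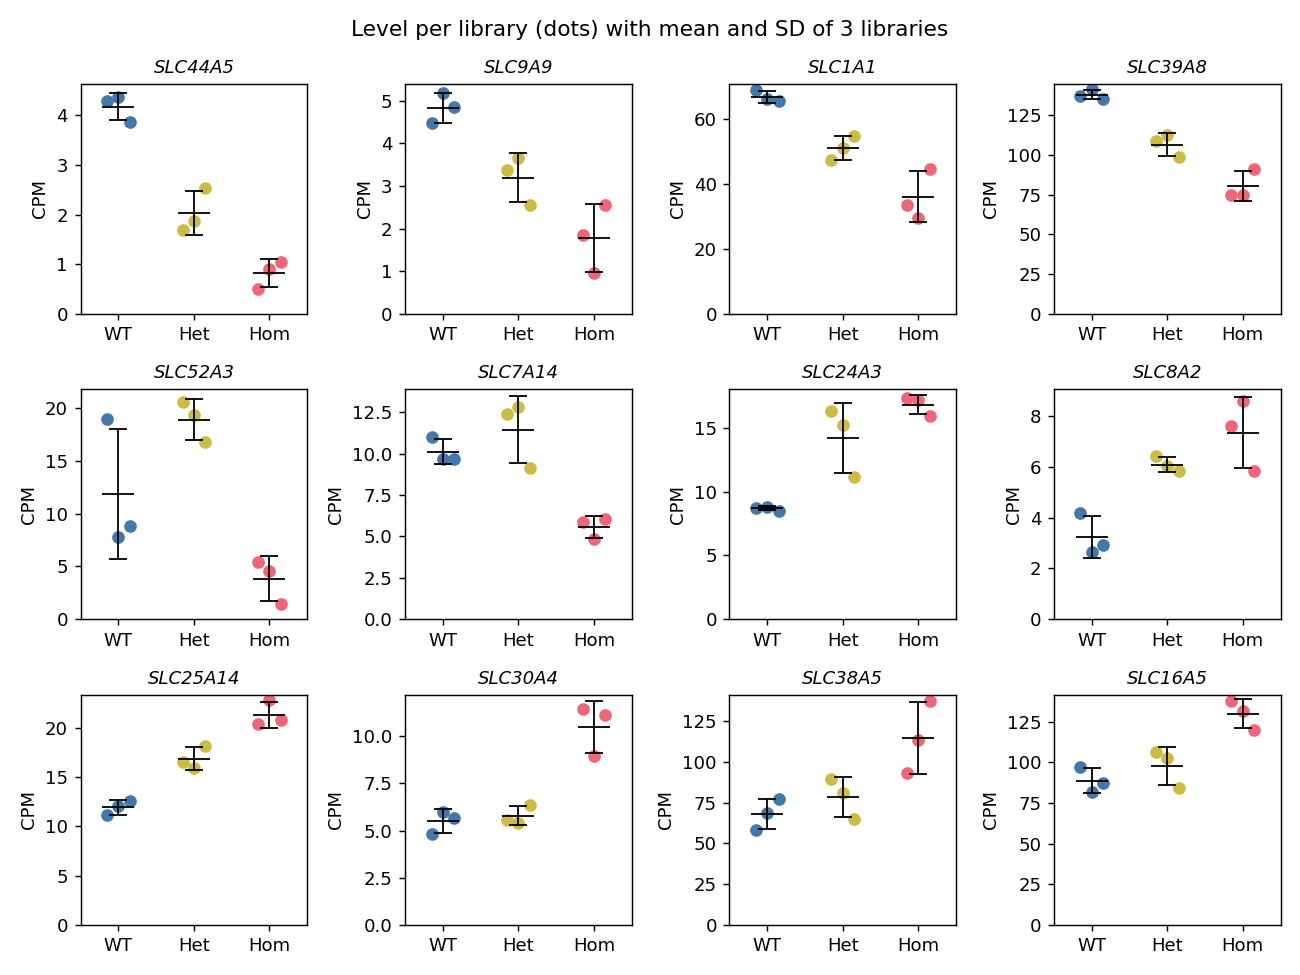
Level of 12 called carriers in each library in CPM (dots), by genotype (WT, Het and Hom: wild type, heterozygous and homozygous), with the mean and SD of 3 libraries as bars; every axis starts at 0. The 3 genotypes do not overlap in SLC44A5, SLC1A1, SLC39A8 and SLC25A14, but of these genes SLC44A5 alone passed the test in all 3 comparisons; SLC24A3 and SLC8A2 differ from wild type in both mutants, and SLC30A4 and SLC7A14 differ in the homozygous libraries.

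Among 8 monocarboxylate and creatine carriers 2 were called higher and none lower in homozygous against wild-type cells. Over all genes tested 3.50% were called higher and 4.18% lower. SLC16A5, of the monocarboxylate family, was at 97.2, 81.8 and 87.4 CPM in wild type, 107, 103 and 84.2 CPM in heterozygous and 138, 132 and 120.2 CPM in homozygous cells. Homozygous libraries lay above all others, a rise of 0.55 (SE 0.10, adjusted p = 0.00579). The creatine carrier SLC6A8 was at 73.8 ± 2.24, 80.5 ± 3.13 and 91.4 ± 6.53 CPM. Its rise of 0.31 (SE 0.08, adjusted p = 0.0334) was lost without any wild-type library, heterozygous replicate 2 or homozygous replicates 1 or 2 (0.0568 to 0.166) and with no filter on low counts (0.0566). SLC16A7, a monocarboxylate carrier near the minimum level, had the largest log2 difference of the class, -1.08 (SE 0.35), which did not pass (adjusted p = 0.0838).

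The taurine carrier SLC6A6 was at 82.8 ± 3.92, 85.9 ± 6.70 and 82.3 ± 6.94 CPM. Of 29 nucleoside and nucleotide sugar carriers only SLC35F5, a member with no settled substrate, was called with edgeR in homozygous against wild-type cells. DESeq2 called 3 of the 29 and limma-voom 2. Over all genes tested edgeR called 7.68%, DESeq2 10.5% and limma-voom 7.87%. SLC35F5 was at 59.7 ± 0.312, 53.0 ± 2.002 and 48.2 ± 4.13 CPM and fell by 0.31 (adjusted p = 0.0440). That call was lost in 7 of 9 fits without a library, all but those without heterozygous replicate 3 or homozygous replicate 3 (0.0562 to 0.172), and with upper quartile scaling, no filter, the replicate block and the 6 libraries alone (0.0549 to 0.0593).

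In homozygous against wild type, edgeR called none of the 15 sugar and polyol carriers, 10 carriers of organic ions and peptides and 2 orphans. None had an unadjusted p below 0.05, and DESeq2 and limma-voom called none. Over all genes tested 23.2% had an unadjusted p below 0.05 and edgeR called 7.68%. SLC5A9 was at 110.8 ± 17.9, 114 ± 6.39 and 129 ± 0.853 CPM. The sugar class excludes SLC2A1 and SLC2A3 by the rule, and SLC2A14 is nearly identical to SLC2A3, so its reads may be shared. Log2 fold changes of the sugar carriers ran from -0.46 to 0.56 and their summed level was 470.4 ± 13.3, 454 ± 28.04 and 462 ± 39.4 CPM. Among the 7 genes that are not carriers, 2 were called lower, beside 4.18% of all genes tested. SLC2A4RG, a DNA-binding regulator of the glucose carrier SLC2A4, was at 48.8 ± 1.70, 37.8 ± 0.876 and 37.4 ± 4.55 CPM, a log2 fold change of -0.38 (adjusted p = 0.0310) that was lost without any wild-type library, heterozygous replicate 2 or homozygous replicates 1 or 3 (0.0557 to 0.129), with upper quartile scaling (0.0663) and with the 6 libraries alone (0.0535). SLC25A3P1, a processed copy of the phosphate carrier gene SLC25A3, was at 1.41 ± 0.103, 1.04 ± 0.308 and 0.610 ± 0.127 CPM (-1.21, adjusted p = 0.0372). It is uncertain because reads may be split with SLC25A3 (422 ± 13.9, 383 ± 66.9 and 479 ± 67.0 CPM, adjusted p = 0.406), and its call was lost without any wild-type library, heterozygous replicate 2 or homozygous replicates 1 or 2 (0.0549 to 0.164).

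**Figure D4:**
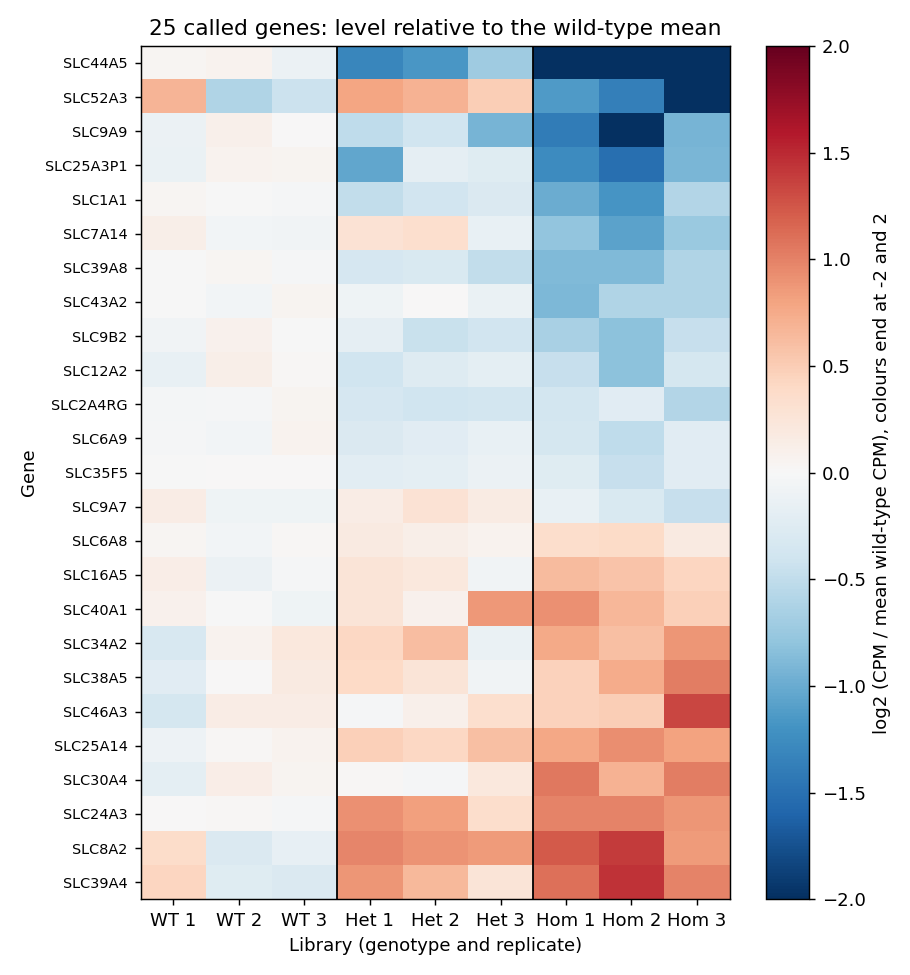
Level of 25 of the 26 members called in any comparison (rows) in each library (columns), as log2 of CPM over the wild-type mean; the colours end at -2 and 2, and black lines separate the genotypes. Rows run from the largest fall in homozygous cells (SLC44A5) to the largest rise shown (SLC39A4), and SLC44A5 is the darkest blue row.

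Genes that work with these carriers were read from lists of related functions. In these lists a rise or fall means a call with edgeR. Over all genes tested, 3.50% were called higher and 4.18% lower in homozygous against wild-type cells. Of 32 tested carriers whose symbols do not begin with SLC and a digit, 3 fell in homozygous cells and none rose. FLVCR2, of the heme and choline carrier family, was at 51.0 ± 6.26, 33.3 ± 2.90 and 32.2 ± 5.88 CPM and fell in both mutants (-0.66, adjusted p = 0.00903, and -0.62, adjusted p = 0.0364). Its homozygous call failed without wild-type replicate 2 (0.0530), and its heterozygous call without wild-type replicates 2 or 3, any heterozygous library or homozygous replicate 1 (at up to 0.201). The organic anion carriers SLCO4A1 (1.92 ± 0.692 to 0.721 ± 0.0682 CPM from wild type to homozygous) and SLCO1A2 (1.86 ± 0.254 to 0.838 ± 0.289 CPM) fell by 1.40 and 1.23. Omitting wild-type replicate 2 or homozygous replicates 1 or 2 ended the call of SLCO4A1 (at up to 0.113), and omitting any wild-type library or homozygous replicates 2 or 3 that of SLCO1A2 (at up to 0.138). Of 12 tested genes listed as carrier partners, a mixed list, EMB and ARL6IP1 fell in homozygous against wild-type cells. EMB, a chaperone of monocarboxylate carriers, was at 77.6 ± 2.97, 86.6 ± 7.93 and 60.6 ± 7.27 CPM (-0.36, adjusted p = 0.0494). The EMB call failed without any wild-type library, heterozygous replicate 2 or homozygous replicates 1 or 2 (at up to 0.185), and that of ARL6IP1 in all such fits but the one without heterozygous replicate 3 (at up to 0.218). Homozygous cells were lower than heterozygous in 2 of the 12, beside 1.22% of all genes tested: EMB (-0.52, adjusted p = 0.0198) and NPTN, a chaperone of the same carriers (124 ± 6.53 and 96.3 ± 3.75 CPM, -0.37, adjusted p = 0.0290). Between the mutants the EMB call failed without heterozygous replicates 2 or 3 or homozygous replicate 2 (at up to 0.0855), and that of NPTN in 8 of 9 such fits, all but the one without wild-type replicate 1 (at up to 0.0747). Of 13 ion pumps, the plasma membrane calcium pumps ATP2B4 and ATP2B1 changed in opposite directions. ATP2B4 rose by 0.60 (82.8 ± 8.05 to 126 ± 21.4 CPM, adjusted p = 0.0153), and ATP2B1 fell by 0.64 (222 ± 21.5 to 142 ± 23.1 CPM, adjusted p = 0.00717). The ATP2B1 call held in all 9 fits without a library, and that of ATP2B4 failed without wild-type replicates 2 or 3 or homozygous replicate 1 (at up to 0.0838).

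None of 11 tested metal handling genes was called in any comparison with edgeR. At an unadjusted p below 0.05 there were 2 in homozygous and 1 in heterozygous cells against wild type and 3 between mutants. Over all genes tested the unadjusted shares were 23.2%, 13.5% and 18.3%, and edgeR called 7.68%, 1.86% and 2.21%. DESeq2 called 2, 0 and 1 of the 11 and limma-voom 1, 0 and 0. Of 19 genes of the amino acid response and synthesis, 3 fell and none rose: PSAT1 of serine synthesis (232 ± 28.97 to 182 ± 8.67 CPM), the mitochondrial folate enzyme MTHFD2 (173 ± 10.98 to 131 ± 7.91 CPM) and ALDH18A1 of proline synthesis (101 ± 6.16 to 79.9 ± 5.69 CPM). Their log2 fold changes were -0.35, -0.40 and -0.34, and the list median was -0.08. PSAT1 and MTHFD2 failed without any wild-type library, heterozygous replicate 2 or homozygous replicates 1 or 2 (at up to 0.120 and 0.125), and ALDH18A1 without wild-type replicates 2 or 3 or homozygous replicates 1 or 2 (at up to 0.144). Of 27 tested ABC transporters, which use ATP directly, ABCA7 (0.70, adjusted p = 0.00510) and ABCC4 (0.47, adjusted p = 0.0245) rose and none fell. ABCA7 held in all 9 fits without a library, and ABCC4 failed without wild-type replicates 2 or 3 or homozygous replicate 1 (at up to 0.124). Each of these shares is to be read beside 7.68% of all genes called.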

How the data were processed

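Total RNA of definitive endoderm made from H9 cells was sequenced (Illumina, per the labels), and the authors deposited 1 table of raw counts, with a row per Ensembl gene and a column per library. Tools named by the submitters' processing notes are HTSeq, SAMtools, HISAT2, Trimmomatic and FastQC, with build hg38. Roles, versions, annotation release and strand setting: not given in the sources used here. Symbols were found for 26177 of 26240 genes. Coordinates and union exon lengths are those of GENCODE 29 on GRCh38.

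The whole table was fitted in R 4.3.3 with edgeR 4.0.16: filterByExpr by genotype (16837 genes kept, 9403 removed, all 228 members kept), TMM factors (0.973 to 1.01), and the quasi-likelihood test, two-sided, on all 9 libraries together with no factor but genotype. A call is a Benjamini-Hochberg adjusted p below 0.05 over all tested genes. An SE is the log2 fold change's size over the root of its F. Printed CPM are counts over the TMM-adjusted library size. CPM for the 1 CPM minimum used unadjusted totals. The common biological coefficient of variation was 0.121. The code was tested on simulated data.

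Substrate classes follow family numbers. Named members are the called genes with the largest differences, up to 4 called per class by adjusted p, the most abundant of each class per kb, the members nearest the minimum, and the subunits of heteromeric exchangers. A called member is not reported here by name. The members, classes and lists were chosen with earlier results of these data known. Replicates 2 and 3 of wild type were the closest pair (chi-square per degree of freedom 2.55, next 7.32, highest 30.6), and every library was counted separately. Alternatives were other scalings and filters, DESeq2 1.42.0, limma-voom (limma 3.58.1), a replicate block, a test against 1.5-fold (glmTreat), the 6 libraries of a comparison alone, and leaving out each library.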

Additional observations from a re-analysis of the deposited data

How the results depend on the processing

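No named call reversed direction under any alternative run, and each of the 25 members called in homozygous against wild type was also called by DESeq2 and limma-voom. The count of 25 became 38 with DESeq2 (16.7% of members beside 10.5% of all genes) and 1 with glmTreat (0.439% beside 1.67%). It was 12 to 44 when 1 library was left out. It was 12 without replicate 2 of wild type (5.26% beside 3.79%) and 13 without its replicate 3 (5.7% beside 4.01%). It was 15 without homozygous replicate 1 (6.58% beside 5.0%) and 44 without homozygous replicate 3 (19.3% beside 12.2%). Of the 25, 11 were called in all 9 of those fits. The heterozygous count of 4 became 8 with DESeq2 (3.51% of members beside 3.41% of all genes). It became 0 with glmTreat (beside 0.529%) and 9 with the 6 libraries alone (3.95% beside 3.68%). Left out 1 at a time, the libraries gave 0 to 9. There were 0 without wild-type replicates 2 or 3 or heterozygous replicates 1 or 2, beside 0.745% to 1.01% of all genes. There were 2 (0.877%) without heterozygous replicate 3 (beside 1.61%) or homozygous replicate 1 (beside 1.5%). Without homozygous replicate 2 there were 7 (3.07% beside 2.38%), and without homozygous replicate 3 there were 9 (3.95% beside 3.59%). Without wild-type replicate 1 there were 5 (2.19% beside 2.09%), of which 1 was among the 4. None of the 4 held in all 9 fits. The count of 6 between mutants became 10 without a filter on low counts (4.39% of members beside 1.92% of all genes). It became 15 with DESeq2 (6.58% beside 5.04%), 1 with glmTreat (0.439% beside 0.398%) and 3 with the 6 libraries alone (1.32% beside 1.09%). It was 2 to 7 when 1 library was left out. It was 2 without heterozygous replicate 2 (0.877% beside 0.816%) and 7 without homozygous replicate 3 (3.07% beside 2.17%). It was 3 (1.32%) without wild-type replicates 2 or 3 (beside 1.33% and 1.36%) or homozygous replicate 2 (beside 1.24%). SLC52A3 and SLC7A14 held in all 9. A minimum of 0.5 or 2 CPM gave 243 or 209 members.

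Deviations of same-numbered libraries from their genotype means correlated at r from -0.19 to 0.24 over 9 pairs, 4 of them over 0.1. Between libraries with different numbers r ran from -0.43 to 0.36. The labels do not say what the numbers mean, and so few pairs cannot decide whether they mark a shared batch. With the replicate number as a block the counts of called members were 28, 6 and 9. Over all genes tested they were 1503, 492 and 461, beside 1293, 313 and 372 without it. Depth limits the scarce genes most: SLC44A5 rests on 54 reads in homozygous cells.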
